A study of Mus musculus with 7 samples.

Results

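The core circadian clock genes examined here are the 10 genes Arntl, Clock, Npas2, Per1, Per2, Per3, Cry1, Cry2, Nr1d1 and Nr1d2. They were taken from the deposited expression table by exact match of their symbols, and all 10 were found among its 23930 genes. The circadian clock is a loop of transcription factors that runs in nearly every cell with a period of about a day. ARNTL (also called BMAL1) pairs with CLOCK or NPAS2 and switches on the Period, Cryptochrome and Nr1d genes. The PER and CRY proteins then block this pair, and the REV-ERB receptors made from Nr1d1 and Nr1d2 shut down Arntl itself, so that Arntl and Nr1d1 are known to peak at opposite times of day. In skeletal muscle the same loop is known to act on metabolism and on myogenic genes.

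RNA was measured in sorted muscle stem (satellite) cells of mice with an inducible Pax7-GFP reporter. Every animal, controls included, was given tamoxifen from 12 weeks of age, early in the 4 weeks that it spent, until 16 weeks of age, in normocapnia (3 libraries, NC1 to NC3, room air) or in hypercapnia (4 libraries, HC1 to HC4, a chamber with raised CO2). The labels give the strain as C57BL/6 in NC1, with a last number that rises by 1 with each library to 12 in HC4, while the growth protocol describes all of them as C57/B6 littermates. In this line a tamoxifen-dependent Cre made from the Pax7 gene removes a stop cassette, so that cells that expressed Pax7, and their progeny, stay fluorescent. According to the study's methods, hind leg muscles of both groups had been injured with cardiotoxin, a toxin that destroys myofibers, some days before the sort. The title of the table names a time of 40 hours, which the labels do not explain. The sources used here do not give the hour of day at which muscles were collected.

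Levels are given in RPM, a library's reads scaled to the same total in every library. Each gene is read through 1 short amplicon, so that levels compare a gene between libraries and not genes with each other. Library totals ran from 14527445 to 23388710 reads. NC3 stood apart: it was the lowest library for 49.0% of the 12504 genes that average 1 RPM or more. Markers of cells other than satellite cells were present. Pax7, which defines satellite cells, was highest in NC1 (268 RPM) and lowest in NC3 (4.34 RPM), and Lyz2, a macrophage gene, was highest in NC3 (29108 RPM) and lowest in NC1 (8354 RPM). In these bulk samples fewer cells of a type and less RNA per cell cannot be told apart.

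DNA around the transcription starts of the clock genes is shown first, because the loop runs through short motifs in it. RefSeq windows (GRCm38.p6, 250 bases before to 50 after a start) were matched by symbol for 9 of the 10 genes, all except Per2, in 13 windows. The motifs searched, on both strands, were the E-box CACGTG and its variant CACGTT, to which the ARNTL pair binds, the elements TAGGTCA and TAGGTTA, to which REV-ERB and ROR receptors bind, and the D-box TTATGTAA, to which DBP, TEF, HLF and NFIL3 bind. No match shown overlaps another motif. Among all 32851 windows, these motifs occur in 7.15%, 4.68%, 2.61%, 1.44% and 0.938% in the same order. The stretches that hold matches follow, on the strand of the gene from 5′ to 3′ with the matches in capitals, for Arntl (chr7:113207461-113207560, plus strand), Nr1d1 (chr11:98775368-98775447, minus strand), Per1 (chr11:69098749-69098828, plus strand), Cry1 (chr10:85185075-85185154, minus strand) and Per3 (chr4:151044806-151044885, minus strand).
Arntl: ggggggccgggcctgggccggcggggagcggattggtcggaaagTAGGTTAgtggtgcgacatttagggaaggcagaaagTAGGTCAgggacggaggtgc
Nr1d1: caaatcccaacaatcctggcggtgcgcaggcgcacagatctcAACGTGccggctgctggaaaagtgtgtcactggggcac
Per1: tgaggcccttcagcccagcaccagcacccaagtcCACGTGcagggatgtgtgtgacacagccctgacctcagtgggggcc
Cry1: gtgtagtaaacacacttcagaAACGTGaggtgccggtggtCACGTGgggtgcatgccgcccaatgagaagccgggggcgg
Per3: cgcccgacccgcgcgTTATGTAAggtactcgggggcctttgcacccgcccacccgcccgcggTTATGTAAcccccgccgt
Arntl thus carries both receptor elements side by side, at positions -6 and 31 from the start, whereas Nr1d1 (position -28), Per1 (-166) and Cry1 (-79 and -60) carry an E-box or its variant and Per3 a pair of D-boxes (-205 and -158). AACGTG is CACGTT read from the opposite strand. Cry2 holds the variant at -166, and no match was found in the windows of Clock, Npas2 and Nr1d2. These matches are letters in a window and were not tested for binding. As whole genes in the same assembly, Per2 lies at chr1:91415977-91459351, Clock at chr5:76209868-76305603, Npas2 at chr1:39193702-39363240, Cry2 at chr2:92403646-92434085 and Nr1d2 at chr14:18204056-18239106. The part of each gene that its amplicon reads was not analysed here.

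Per2 was lower in hypercapnia, and it was the only one of the 10 genes to pass the thresholds, which are those of the study (a fold change above 1.5 together with p under 0.05 before adjustment, here in limma, a linear model that borrows the spread of all genes). Of all genes measured, 2.57% passed them, 1.14% as lower and 1.43% as higher. Among the 12504 genes that average 1 RPM or more, as all 10 clock genes do, 4.75% passed. The edgeR and DESeq2 tests on whole reads also called 1 of the 10, Per2, beside 6.03% and 6.25% of the genes they tested. After Benjamini-Hochberg adjustment over all genes, 0 of the 10 passed in limma, in edgeR or in DESeq2. At an unadjusted p under 0.05 there were 2 in limma (Per2 and Clock, beside 4.66% of all genes), 1 in edgeR and 1 in DESeq2.

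The Period genes encode the PER proteins, which together with CRY repress the ARNTL pair. Per2 stood at 8.96, 25.1 and 10.3 RPM in NC1 to NC3 and at 6.29, 6.93, 6.12 and 5.08 RPM in HC1 to HC4. Every hypercapnic library lay below every normocapnic one, and NC2 stood far above the rest. Per2 was the 1 gene of the 10 with its groups apart, which held for 4.83% of all genes (2.3% lower in hypercapnia, 2.53% higher) and 7.72% of those that average 1 RPM or more. The values rest on 75 to 586 reads. The means were 14.8 ± 8.94 RPM (SD, n = 3) and 6.11 ± 0.77 RPM (SD, n = 4). The difference on the log2(RPM + 1) scale was -1.02 (SE 0.36, 95% interval -1.91 to -0.12, adjusted p = 0.915 in limma). An exact permutation test of the same difference over all 35 assignments of the library labels, two-sided, gave p = 0.0286, the smallest p it can give. Adjusted p ranged from 0.296 to 0.961 over the 17 alternatives.

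The call depended on single libraries. Without NC2 the difference was -0.58 (SE 0.13), just under the fold threshold, and 0 of the 10 genes were called, beside 5.04% of all genes. In that fit the limma p of Per2 was 0.00726 before adjustment (adjusted p = 0.425), so only the fold threshold was missed. Leaving out any hypercapnic library took the limma p above 0.05 with the difference at -1.07 to -0.94, while the call held without NC1 (-1.28) and without NC3 (-1.19). After median-of-ratios scaling the groups touched, with 7.2 RPM in NC1 and 7.27 RPM in HC2, and the call was kept (-1.15). Ratios of Per2 to other clock genes within a library are given as a description. The log2 ratio of Per2 to Per1, each with 1 RPM added, was -4.18, -3.79 and -3.24 in the normocapnic libraries and -4.67, -4.64, -4.41 and -4.60 in the hypercapnic ones, in order of number. The ratio of Per2 to Arntl was 0.80, 0.67 and 0.33 against -0.85, -0.94, 0.01 and -0.46. In both, the hypercapnic libraries lay below the normocapnic ones. Both ratios reuse the Per2 values, which were already apart, so they are no separate support. The ratios of Nr1d1, Nr1d2, Per1, Per3, Cry1, Cry2 and Dbp to Arntl overlapped between the groups.

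Per1 is also known as a fast responder to hormones and stress. It stood at 179, 359 and 105 RPM in NC1 to NC3 and at 184, 197, 150 and 147 RPM in HC1 to HC4. NC2 was again the highest, NC3 the lowest, and the hypercapnic libraries lay between them. The difference was -0.17 (SE 0.42, 95% interval -1.23 to 0.89), which turned to 0.29 without NC2. Per3 stood at 4.28, 2.01 and 0.757 RPM against 1.97, 1.61, 2.44 and 2.03 RPM. NC3 rested on 11 reads. The groups overlapped, and the difference was -0.02 (SE 0.38, 95% interval -0.96 to 0.92).

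**Figure D1:**
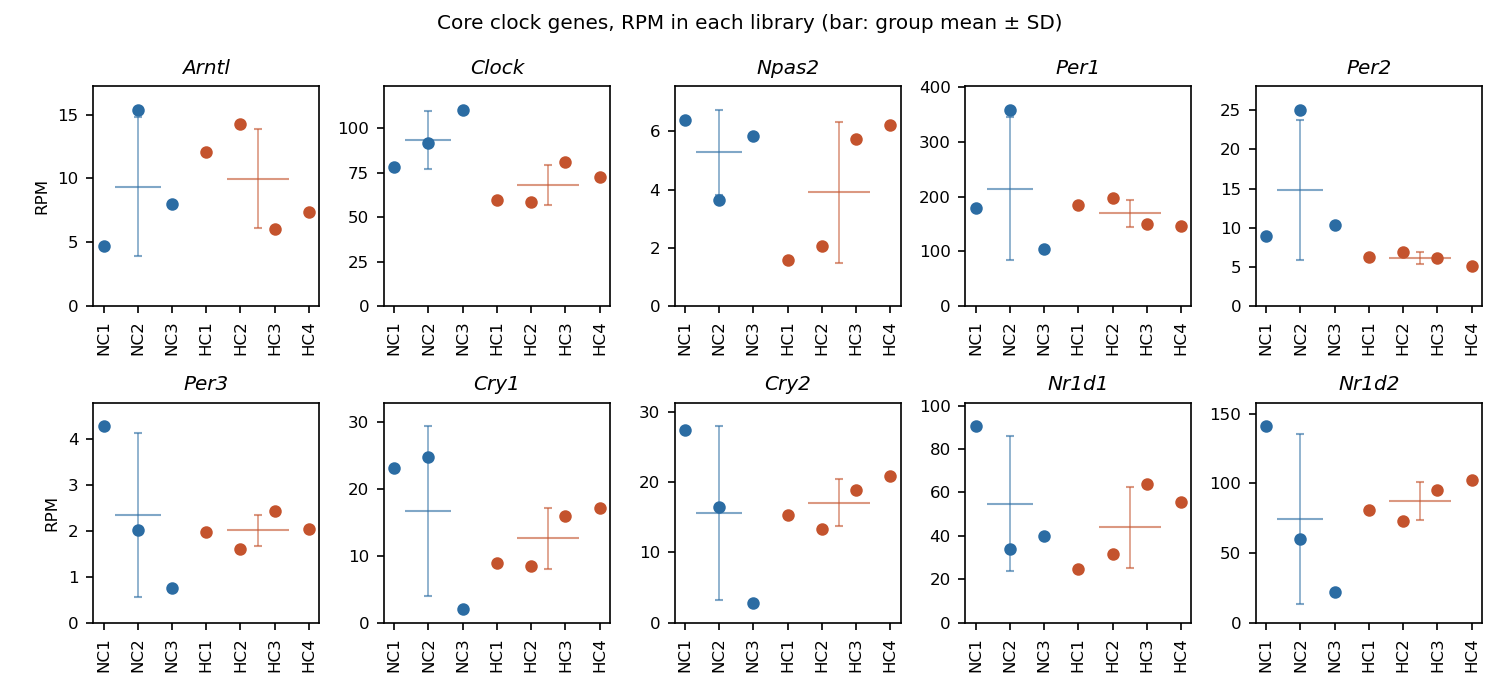
RPM (vertical axis, from 0) of each of the 10 core clock genes in the 7 libraries (horizontal axis; blue, normocapnia; red, hypercapnia), with the group mean and SD as a bar. Per2 is the gene whose 4 hypercapnic values all lie below the normocapnic ones, and the normocapnic values of Cry1, Cry2 and Nr1d2 differ by the largest folds (12.0, 10.0 and 6.51 from lowest to highest).

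Among the activators, Clock passed the limma p before adjustment but not the fold threshold. It encodes the partner of ARNTL, and it stood at 77.9, 91.7 and 110.4 RPM in NC1 to NC3 and at 59.5, 58.5, 81.2 and 72.7 RPM in HC1 to HC4. HC3 lay above NC1, so the groups overlapped. The difference was -0.45 (SE 0.17, 95% interval -0.88 to -0.02, adjusted p = 0.915 in limma), or -0.61 relative to the median of genes at 1 RPM or more, which itself lay at 0.16. Its sign held under all 17 alternatives (-0.70 to -0.32), but its p before adjustment was above 0.05 in edgeR and DESeq2, under median-of-ratios or quantile scaling, with genes under 1 RPM left out, and without NC2, NC3, HC1, HC2 or HC4, and the exact permutation test gave p = 0.0857.

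Arntl, the factor without which the loop stops, did not part by exposure. It stood at 4.73, 15.4 and 7.99 RPM in NC1 to NC3 and at 12.1, 14.3, 6.06 and 7.38 RPM in HC1 to HC4. NC2, HC1 and HC2 were high and NC1, HC3 and HC4 low, in both groups alike. The difference was 0.14 (SE 0.46, 95% interval -1.0 to 1.29), and its sign depended on the scaling (-0.15 with quantile normalization) and on NC1 (-0.22 without it).

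Npas2 encodes a factor that can stand in for CLOCK. It stood at 6.38, 3.63 and 5.85 RPM against 1.58, 2.06, 5.75 and 6.23 RPM. HC1 and HC2 were the lowest of all, while HC3 and HC4 lay among the normocapnic values. The difference was -0.48 (SE 0.46, 95% interval -1.63 to 0.68). Npas2 was the gene of the 10 whose spread was larger in hypercapnia (SD 0.77 against 0.36 on the log2 scale); in the other 9 it was larger in normocapnia, as in 81.1% of genes at 1 RPM or more.

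The Cryptochromes, the strongest repressors of the loop, had their widest range within normocapnia. Cry1 stood at 23.2, 24.8 and 2.06 RPM in NC1 to NC3 and at 8.86, 8.49, 16.0 and 17.1 RPM in HC1 to HC4. NC3 was the lowest and the other normocapnic libraries the highest, with all of hypercapnia between them. The difference was 0.07 (SE 0.85, 95% interval -2.06 to 2.20). Without NC3 it became -0.94 (adjusted p = 0.735 in limma), which was called, with its p before adjustment close to 0.05, as 2.57% of all genes were in that fit. Of the 10 clock genes 2 passed without NC3, Cry1 and Per2, both lower. With all libraries its sign turned with the scaling, to -0.02 under median-of-ratios scaling and to -0.18 after quantile normalization.

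Cry2 stood at 27.5, 16.5 and 2.75 RPM in NC1 to NC3 and at 15.3, 13.4, 18.9 and 20.9 RPM in HC1 to HC4. NC3 was again far below and NC1 highest. The difference was 0.54 (SE 0.72, 95% interval -1.26 to 2.33), and it was -0.32 without NC3. For both genes the interval holds large changes in either direction, so that a change in hypercapnia was not detectable with these libraries.

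The REV-ERB receptors close the second loop by repressing Arntl through the elements printed above. Nr1d1 stood at 90.6, 33.9 and 40 RPM in NC1 to NC3 and at 24.7, 31.6, 63.9 and 55.5 RPM in HC1 to HC4. NC1, HC3 and HC4 were high and NC2, HC1 and HC2 low, so that the split ran within each group. The difference was -0.28 (SE 0.50, 95% interval -1.52 to 0.96), and 0.14 without NC1. Nr1d2 stood at 141, 59.7 and 21.7 RPM against 80.5, 72.6, 94.9 and 102 RPM. The extremes were again NC1 and NC3, and the difference was 0.60 (SE 0.62, 95% interval -0.96 to 2.15). It was 1.24 without NC1, which passed the thresholds (adjusted p = 0.421 in limma, in a fit where 8.32% of all genes passed), and -0.08 without NC3.

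**Figure D2:**
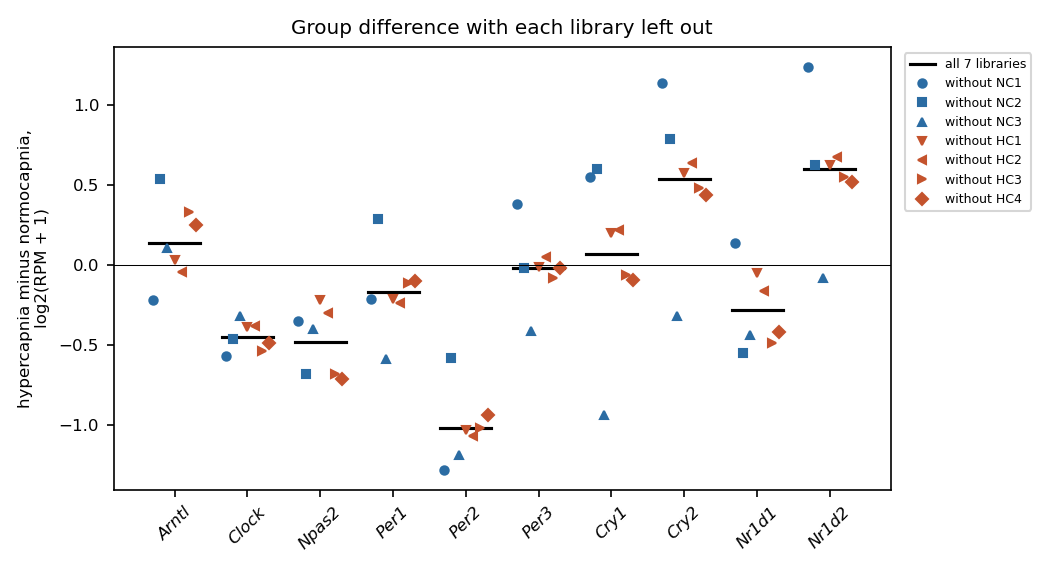
Fitted group difference on the log2(RPM + 1) scale (vertical axis) for each core clock gene (horizontal axis) with all 7 libraries (black line) and with each library left out (symbols; blue, a normocapnic library; red, a hypercapnic one). Values for Cry1 run from -0.94 without NC3 to 0.60 without NC2, whereas Per2, Clock and Npas2 stay below 0 throughout.

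Across the 10 genes the extremes tended to lie within normocapnia. The highest and the lowest library were both normocapnic in 6 of them, as in 41.8% of genes at 1 RPM or more. NC1 was the highest library in 5, NC2 in 4 and NC3 in 1, beside 31.4%, 15.7% and 15.4% of genes, and NC3 was the lowest in 5, near its share of 49.0%. The fitted difference was above 0 in 4 and below 0 in 6, with a median of -0.09 beside 0.16 for genes at 1 RPM or more. That balance moved to 2 above and 8 below with quantile normalization and in edgeR and DESeq2, and to 1 and 9 without NC3. It moved the other way, to 5 and 5, with a pseudocount of 0.1 RPM, without NC1 and without NC2, where the median was 0.13. The median of genes at 1 RPM or more moved too, from 0.16 to -0.01 after quantile normalization and in edgeR, -0.04 in DESeq2 and -0.07 without NC3, and to 0.20 with a pseudocount of 0.1 RPM, 0.36 without NC1 and 0.17 without NC2. In 8 of the 10 the difference stayed within 1.5-fold.

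In each of the 10 genes, HC1 and HC2 lay together on one side of HC3 and HC4, below them in 7 genes and above them in Arntl, Per1 and Per2. This arrangement was noticed in the values, and 68.2% of genes at 1 RPM or more have it too. Per1 and Per2 were higher in HC1 and HC2 by small margins. The larger steps were those of Arntl, at 12.1 and 14.3 RPM against 6.06 and 7.38 RPM, and, in the opposite direction, Npas2, Nr1d1 and Cry1.

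The opposition of Arntl and Nr1d1 is clearest as a ratio within each library, given as a description. The log2 ratio of Nr1d1 to Arntl, with 1 RPM added to each, was 4.00 in NC1, 3.20 in HC3 and 2.75 in HC4, 2.19 in NC3, and 1.09 in NC2, 0.97 in HC1 and 1.09 in HC2. Group means were 2.43 ± 1.47 (SD, n = 3) and 2.0 ± 1.14 (SD, n = 4), so the exposures differed by less than the spread within either. Pax7 was also highest in NC1, HC3 and HC4 (268, 79.5 and 59.6 RPM) and at most 21.5 RPM in the other 4 libraries, and Pecam1, an endothelial gene, was highest in HC3 (317 RPM), HC4 (229 RPM) and NC1 (132 RPM). The part of the cell mixture in this pattern was not tested.

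**Figure D3:**
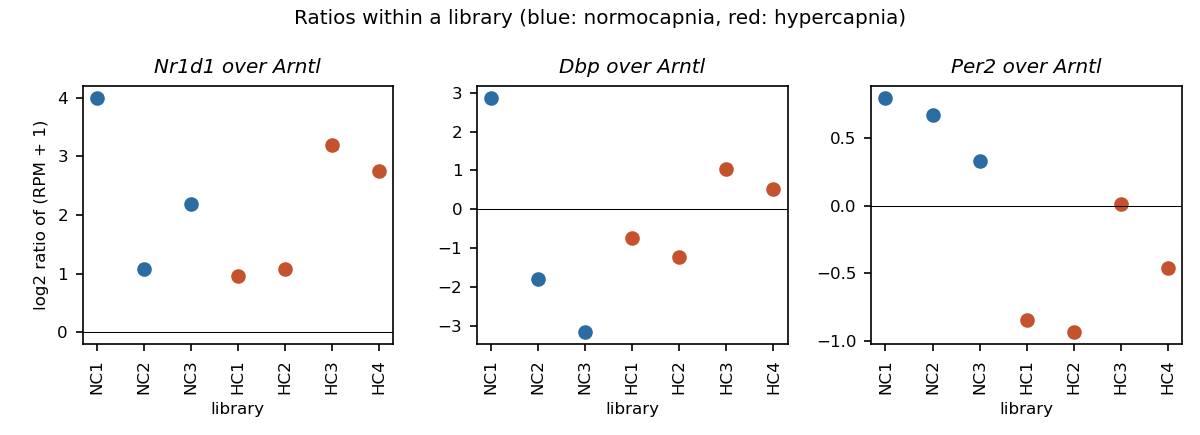
Log2 ratio of Nr1d1, Dbp and Per2 to Arntl within each library, with 1 RPM added to each value (vertical axes differ in range; horizontal axis, library; blue, normocapnia; red, hypercapnia). NC1, HC3 and HC4 have the highest Nr1d1 and Dbp ratios, and the Per2 ratio is above 0.3 in normocapnia and at most 0.01 in hypercapnia.

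**Figure D4:**
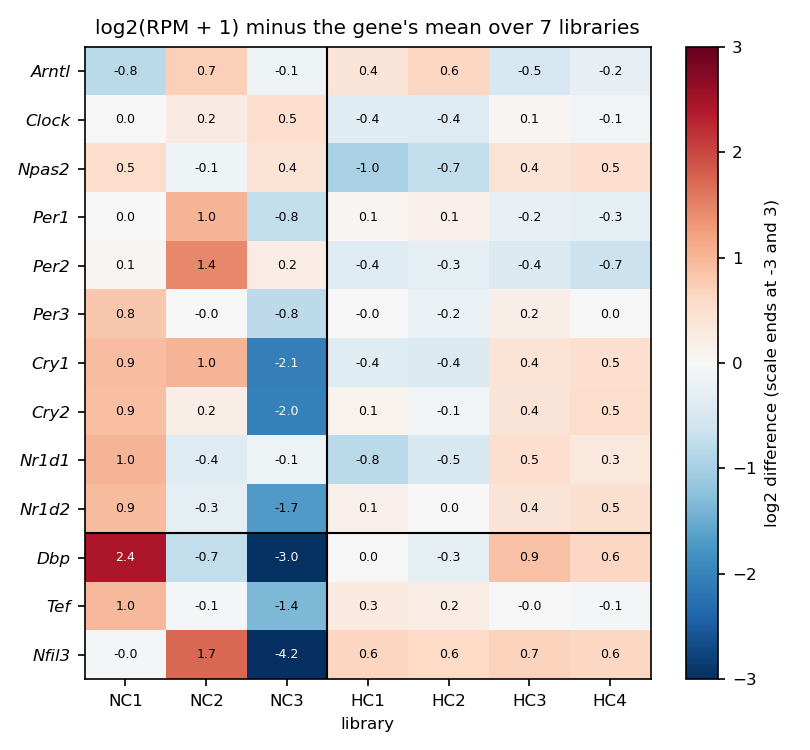
Heat map of log2(RPM + 1) minus the gene's own mean over the 7 libraries (columns) for the 10 core clock genes and, under the line, for Dbp, Tef and Nfil3 (rows); the color scale ends at -3 and 3. NC3 has the lowest values of Cry1, Cry2, Nr1d2 and Dbp, and Arntl has the opposite sign to Nr1d1 in NC1, NC2, HC1, HC2, HC3 and HC4.

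The gene closest to Per2 in its profile over the 7 libraries was Irs2, an adaptor of the insulin receptor, among 8229 genes that average 10 RPM or more. The root mean square difference of the centered log2(RPM + 1) values was 0.171. Irs2 stood at 51.2, 104.5 and 52.3 RPM in NC1 to NC3 and at 36.7, 40.1, 41.6 and 33.9 RPM in HC1 to HC4, with NC2 highest and hypercapnia below normocapnia. Next came Dirc2 (0.198), Eid3 (0.203), B4galnt1 (0.227) and Ccng2 (0.23). They were chosen for this likeness, so their lower levels in hypercapnia follow from the choice.

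Clock genes outside the core were read from a list of 24, of which Bhlhe41 and Ciart were not analysed here. Limma called 1 of the other 22, Nampt, as higher, and 0 as lower, against 2.57% of all genes. In edgeR and in DESeq2 2 were called, both lower, Rora among them, beside 6.03% and 6.25% of the genes they tested. After adjustment 0 passed in limma, edgeR or DESeq2, and 2 had an unadjusted p under 0.05 in each of the 3 tools. Over these 22 genes the fitted difference was above 0 in 13 and below 0 in 9, with a median of 0.08.

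Nampt, the rate-limiting enzyme of the NAD salvage pathway and a known clock target, was higher. It stood at 63.1, 118 and 88.0 RPM in NC1 to NC3 and at 183.9, 159.5, 133 and 132 RPM in HC1 to HC4, with the groups apart. They overlapped under median-of-ratios scaling, where NC3 stood at 128 RPM and HC4 at 117 RPM. The difference was 0.79 (SE 0.24, 95% interval 0.18 to 1.39, adjusted p = 0.915 in limma; exact permutation p = 0.0286). It missed a threshold in edgeR (0.61), DESeq2 (0.57) and under median-of-ratios scaling (0.64), and without NC1 (0.56), NC3 (0.79) or HC2 (0.76). Nampt is also known as an inflammatory gene, and of 10 macrophage markers 1 was called higher in hypercapnia, Adgre1, at 70.5 to 149 RPM in normocapnia and 151 to 429 RPM in hypercapnia. The summed level of the 10 ran from 12033 to 34607 RPM in normocapnia and from 19665 to 24518 RPM in hypercapnia. Of 6 neutrophil markers 1 was also called higher, Mmp8 (at most 17 RPM in normocapnia and at least 27 RPM in hypercapnia). The rest, not called, differed by 0.02 (S100a8), 0.19 (S100a9), 0.78 (Csf3r), 0.15 (Cxcr2) and -0.59 (Retnlg). Both counts stand beside 2.57% of all genes called in limma. The part of macrophages and neutrophils in the Nampt difference was not tested.

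Rora, the receptor that activates Arntl through the same elements that REV-ERB uses, stood at 20.4, 13.0 and 8.33 RPM against 3.90, 5.28, 10.2 and 9.82 RPM. HC3 and HC4 lay above NC3, and the difference was -0.85 (SE 0.43, 95% interval -1.93 to 0.23, adjusted p = 0.915 in limma). With median-of-ratios scaling the groups were apart, at 12.1 RPM or more in normocapnia and at most 9.13 RPM in hypercapnia, and Rora passed the thresholds (-0.98), as it did in edgeR (-0.99) and DESeq2 (-1.03). Its relative Rorb was close to the limit of detection.

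The D-box factors form an output arm of the loop. Dbp, a direct target of the ARNTL pair and one of the strongest rhythmic genes known, stood at 40.9, 3.72 and 0 RPM in NC1 to NC3 and at 6.81, 5.53, 13.4 and 11.1 RPM in HC1 to HC4. NC1 and NC3 marked both ends, and among the hypercapnic libraries HC3 and HC4 lay above HC1 and HC2. NC3 had 0 reads, which allows up to 0.207 RPM, so that Dbp in NC1 was at least 197-fold higher than in NC3. That figure covers counting error only. The group difference of 0.74 had an SE of 1.28.

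Nfil3, which competes with DBP for the same box, ran at 117.6, 405 and 5.44 RPM against 189, 183, 197 and 188 RPM. The hypercapnic libraries were nearly equal, while NC2 and NC3 were 74.4-fold apart. Tef was lowest in NC3 as well (0.757 RPM, 11 reads) and highest in NC1 (7.76 RPM). The difference of Nfil3 was 1.49 (SE 1.41), and it turned to -0.21 without NC3.

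Bhlhe40, an additional repressor of the loop, and Csnk1a1, a casein kinase, both ranged more widely in normocapnia than in hypercapnia. Bhlhe40 ran from 74.5 to 366 RPM in normocapnia and from 136 to 270.1 RPM in hypercapnia (difference 0.12, SE 0.61), with a sign that turned under median-of-ratios scaling (-0.02) and without NC3 (-0.52). Csnk1a1 ran from 274 to 633 RPM and from 312 to 395 RPM (difference -0.25, SE 0.29), with a difference of 0.05 without NC1. Neither passed the thresholds.

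**Figure D5:**
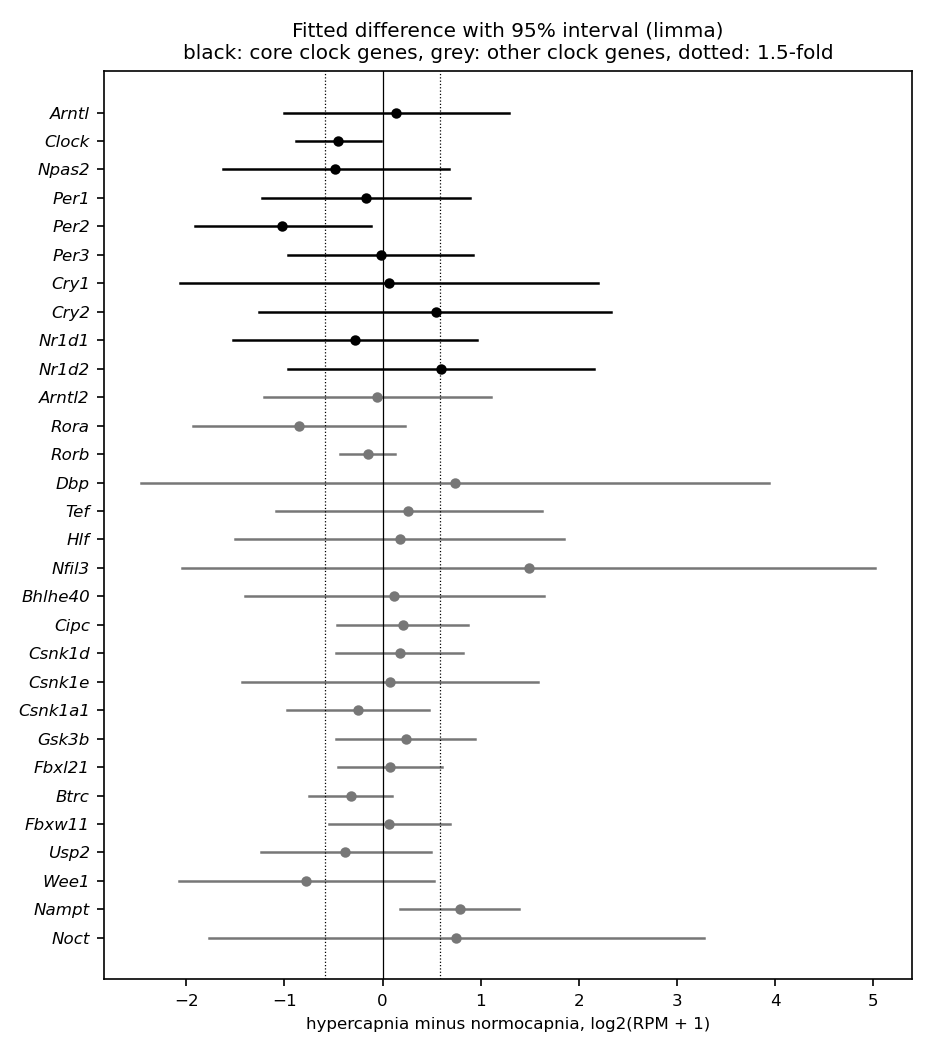
Fitted difference, hypercapnia minus normocapnia on the log2(RPM + 1) scale (horizontal axis), with its 95% interval from limma for the 10 core clock genes (black) and other clock genes (grey); dotted lines mark a 1.5-fold change. The intervals of Per2 and Clock lie below 0 and that of Nampt above it, while those of Cry1, Dbp, Nfil3 and Noct span more than 4 log2 units.

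Signals known to set peripheral clocks were read from 3 short lists. The counts below stand beside 2.57% of all genes called in limma, and 6.03% and 6.25% of the genes tested in edgeR and DESeq2. Of 6 glucocorticoid-responsive genes limma called 0 (0 at an unadjusted p under 0.05), and edgeR and DESeq2 called 1, Fkbp5, as lower. Fkbp5 stood at 52.2, 460 and 284 RPM in NC1 to NC3 and at 57.7, 55.8, 55.7 and 164.7 RPM in HC1 to HC4. The library with the most Fkbp5 was NC2, which was also the highest for Per1 and Per2. Of 9 immediate early genes limma called 1, Atf3, as higher (0.80, SE 0.27), edgeR called 0 (0 at an unadjusted p under 0.05) and DESeq2 called 2, Atf3 as higher and Egr1 as lower. The limma call of Atf3 was lost without NC3 (0.49, under the fold threshold) and, by its p, without NC1 or any 1 hypercapnic library (0.77 to 0.87). Fosb was highest in NC2 (655 RPM) and lowest in NC3 (30.8 RPM), as Per1 was, whereas Egr1 and Dusp1 were highest in NC3 (4196 and 2979 RPM). The part of either list in the Period values was not tested.

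Of 8 temperature-responsive genes 5 are in the table, and limma called 1 lower and 1 higher, beside 1.14% and 1.43% of all genes. Cirbp, a cold-inducible RNA-binding protein known to support the amplitude of the clock, stood at 80.7, 61.1 and 53.8 RPM against 23.2, 27.4, 29.6 and 29.7 RPM, with the groups far apart. The heat shock gene Hsph1 moved the other way, at 120.2, 78.0 and 42.1 RPM against 195.5, 165, 224 and 268 RPM. The other 3 genes of the list, Hspa1a (-0.17), Hspa1b (0.18) and Dnajb1 (0.09), were not called. Cirbp and Hsph1 passed adjustment over all genes in DESeq2 (lowest adjusted p 1.47e-05), but not in limma (lowest 0.492) or edgeR (lowest 0.758).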

How the data were processed

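RNA of sorted Pax7-GFP cells was made into Ion AmpliSeq Transcriptome Mouse libraries and read on an Ion S5 instrument, and differential expression was computed by the authors in the Transcriptome Analysis Console. The deposited table holds RPM made by the authors, each library's reads scaled to one total, and all 7 columns were used. Aligner and build were not given in the sources used here. Whole reads were recovered from the RPM steps (100% of values whole within 0.05 reads). A value at 3 reads corresponds to 0.128 to 0.207 RPM. Groups came from the sample titles. The study gives sample sizes of 3 and 4, and nothing states that libraries came from separate animals. The p-values set the group difference against the spread between these libraries. They would not hold for the exposure if libraries shared animals.

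Limma 3.58.1 (R 4.3.3) was fitted to all 23930 genes, unfiltered, on log2(RPM + 1), two-sided, and called genes with a fold change above 1.5 and p under 0.05 before adjustment. It called 615 genes, and 0 after Benjamini-Hochberg adjustment (1114 at an unadjusted p under 0.05). Fold changes on this scale understate changes of low genes. Alternatives were pseudocounts of 0.1 and 5 RPM, median-of-ratios and quantile scaling, leaving out genes that average under 1 RPM, a prior that follows the mean, edgeR 4.0.16 on the recovered reads (802 genes called with filter, 0 after adjustment), DESeq2 1.42.0 (1304, and 29), the replicate number as a block and each library left out. An exact permutation test of single differences was added after the data were seen. Scripts were tested on simulated data.

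Named were all 10 members, other clock genes called or with groups apart, the gene with the highest RPM in each clock list (a rule for naming only, since amplicons differ), called genes of the lists of temperature, glucocorticoid and immediate early genes, defining markers, and the 5 genes closest to the member with the smallest p. Dbp, Tef, Noct, Fkbp5, Fosb, Egr1, Dusp1, Hspa1a, Hspa1b, Dnajb1, Mmp8 and Rorb fall outside this rule and were named after their values were seen. Some items that the rule names are not reported here. The members and lists were chosen with earlier results of these data known.

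Marker lists were summed per library. Satellite cell genes (10) summed to 543 to 3313 RPM in normocapnia and 774 to 1493 RPM in hypercapnia, neutrophil genes (6) to 82.1 to 226 and 105 to 328 RPM, endothelial genes (6) to 88.5 to 216 and 45.5 to 491 RPM, fibro-adipogenic genes (6) to 1034 to 1767 and 935 to 2230.3 RPM, and myofiber genes (6) to 131 to 2832 and 268 to 1533.5 RPM. Lymphocyte genes (5 of 6 in the table) reached at most 3.05 RPM, with Cd3e at 0 in NC2, and red blood cell genes (2 of 6) at most 15.7 RPM.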

Additional observations from a re-analysis of the deposited data

Results flagged for a closer look

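Among the 32 clock genes tested for a library far from the other hypercapnic ones, 1 was flagged, where chance flags about 5% of groups. Noct, a deadenylase known as a rhythmic output gene, had 27.7, 28.8 and 27.3 RPM in HC1, HC3 and HC4 and 37.6 RPM in HC2, whose gap to the next library was 0.853 of the group's range, above Dixon's critical value for 4 libraries. In normocapnia Noct ran at 36.0, 51.0 and 2.27 RPM, a wider range than the gap in HC2, and groups of 3 were not tested.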

How the results depend on the processing

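The number of core clock genes called was 1 under RPM scaling, 0 with quantile normalization (Per2 at -1.30, further from 0 than its -1.02 but with p above 0.05) and 0 with the replicate number as a block, and 0 to 2 with a library left out. The number with groups apart was 1, but 0 under median-of-ratios scaling, 0 after quantile normalization, and 1 to 3 with a library left out. With fewer libraries groups are apart more easily, and the share of all genes apart in those settings is not given here. Of the other clock genes 1 was called, but 2 with a pseudocount of 0.1 RPM, 2 under median-of-ratios scaling, 3 with quantile normalization, 2 in DESeq2, 2 in edgeR with a filter and 2 without it, and 0 to 3 with a library left out. The replicate number as a block took Per2 to -0.94, Nampt to 0.85, Hsph1 to 1.38 and Atf3 to 0.78, none of them called. The numbers share nothing in the labels, libraries of number 1 deviated in opposite directions (correlation -0.349), and those of numbers 2 and 3 gave 0.503 and -0.044. The cause of these changes was not tested.

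Some differences changed sign, which without NC3 took Cry1 past the thresholds. Arntl was -0.15 with quantile normalization, -0.04 in edgeR, -0.02 in edgeR without a filter and -0.08 in DESeq2. Cry1 was -0.08 with a pseudocount of 5 RPM, -0.02 under median-of-ratios scaling, -0.18 with quantile normalization, -0.38 in edgeR, -0.41 in edgeR without a filter, -0.41 in DESeq2 and -0.09 with the block. Per3 was 0.07 with a pseudocount of 0.1 RPM. Bhlhe40 was -0.02 with median-of-ratios scaling, -0.14 in edgeR, -0.16 in edgeR without a filter, -0.17 in DESeq2 and -0.02 with the block. The exact permutation test, added after the data were seen, left the counts of called genes at 1 and 1. With a library left out, the differences ran from -0.22 to 0.54 for Arntl, -0.59 to 0.29 for Per1, -0.41 to 0.38 for Per3, -0.94 to 0.60 for Cry1, -0.32 to 1.14 for Cry2, -0.55 to 0.14 for Nr1d1, -0.08 to 1.24 for Nr1d2, -0.52 to 0.62 for Bhlhe40, -0.55 to 0.05 for Csnk1a1 and -0.21 to 2.78 for Nfil3. Of 323 refits of the 19 genes refitted, 248 kept direction and call, 25 lost the call, 17 gained it and 33 changed sign. Values under 1 RPM, such as Per3 in NC3, rest on few reads.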
